A study of Homo sapiens with 4 samples.

Results

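GAS5 and 9 genes of the SNHG family, which are noncoding transcripts that carry small nucleolar RNAs (snoRNAs) in their introns, were examined in NSUN2 RIP-seq of PANC-1 cells with and without lactate. The 10 members were listed by name as GAS5, SNHG1, SNHG3, SNHG5, SNHG7, SNHG8, SNHG12, SNHG14, SNHG15 and SNHG16, and were matched on the gene symbol in the annotation of each peak. A peak is a stretch of the genome where the immunoprecipitated (IP) library held more reads than the input library, made from RNA of the same lysate without antibody selection. At least 1 peak was found for 7 of the 10 members, out of 15016 gene symbols with a peak in either IP library.

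PANC-1 is an established line from a human pancreatic ductal adenocarcinoma, and the cells were wild-type. One group was treated with 30 mM sodium lactate for 24 h and the other with ddH2O as the vehicle, and RNA was pulled down with an antibody against NSUN2. Each group had 1 IP library and 1 input library, so that all differences below are between 2 IP libraries, with no replicate check. Of 4 epithelial keratin genes, KRT8, KRT18, KRT19 and KRT7 all had peaks in both IP libraries. The endothelial gene PECAM1 and the hepatocyte gene ALB had none, and the leukocyte gene PTPRC had 1 ddH2O peak of 3 reads. The fibroblast gene COL1A1 had 1 lactate peak, whose window held 47 lactate and 50 ddH2O reads. The densest windows held fewer in KRT7 (16 and 37), but more in KRT19 (92 and 248), KRT8 (1592 and 4024) and KRT18 (2737 and 8085). COL1A1 thus lay below these keratins except KRT7, so the markers do not set the cells apart from fibroblasts in every gene.

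snoRNAs guide the chemical modification of ribosomal and spliceosomal RNAs, and most human ones are cut out of the introns of longer host transcripts. Box C/D snoRNAs direct methylation of the ribose and box H/ACA snoRNAs direct the conversion of uridine to pseudouridine. The spliced exons of the noncoding hosts are exported, and several are broken down by nonsense-mediated decay when ribosomes meet an early stop codon, while NSUN2 is a methyltransferase that makes 5-methylcytosine in transfer RNAs and other transcripts.

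In the lactate IP the members had 16 called peaks, 13 of them on SNHG14, 2 on SNHG16 and 1 on GAS5. In the ddH2O IP they had 35 called peaks, with 26 on SNHG14, 3 on SNHG16, 2 each on SNHG5 and SNHG8, and 1 each on SNHG7 and SNHG15. Of these, 7 lactate peaks, all on SNHG14, and 25 ddH2O peaks had a q-value below 0.05, which are 43.8% (95% Wilson interval 23.1 to 66.8%) and 71.4% (54.9 to 83.7%) of the members' peaks. Over all peaks the shares were 42.7% and 48.6%, so that the members were near them with lactate and above with ddH2O. SNHG14 and SNHG16 were the members with peaks in both lists. SNHG1, SNHG3 and SNHG12 had no peak under their symbol in either list. The ddH2O list was the longer one, with 95785 peaks against 48104, and a gene with a peak in 1 list can still hold reads in the other IP library.

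**Figure D1:**
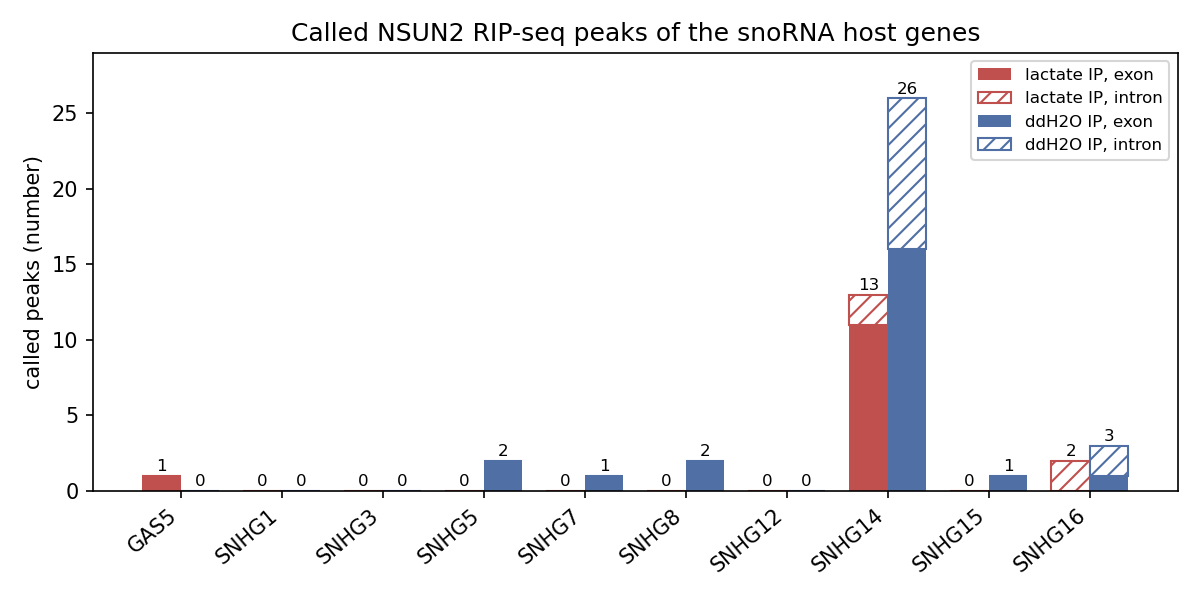
Number of called peaks (vertical axis) of each member in the lactate IP and the ddH2O IP, with filled bars for exon peaks and hatched bars for intron peaks. SNHG14 has 13 and 26 peaks, while no other member has more than 3 in either library.

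The share of members with a peak was 3 of 10 (30.0%) with lactate and 6 of 10 (60.0%) with ddH2O. Of all 18330 long noncoding RNA genes in the RefSeq annotation, 4.05% and 7.17% had a peak under the same symbol, and of 20056 protein-coding genes 47.1% and 58.4% did. With 95% Wilson intervals of 10.8 to 60.3% and 31.3 to 83.2%, the members had called peaks of any q-value more often than noncoding genes in general. With lactate only SNHG14, whose span is 596 kb, had peaks with a q-value below 0.05, and both SNHG16 peaks lay outside its RefSeq span. The lactate share thus rests on weak calls. The RefSeq genes were not limited to those expressed in PANC-1 cells, so expression may differ between the members and that background. A difference from protein-coding genes was not detectable with 10 members.

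Peaks of the members lay mostly in exons, the parts that remain after splicing. Exons held 12 of the 16 lactate peaks (75.0%, 95% Wilson interval 50.5 to 89.8%) and 23 of the 35 ddH2O peaks (65.7%, 49.2 to 79.2%), and introns held the other 4 and 12. On all other long noncoding RNA genes exons held 35.4% of 3356 lactate peaks and 36.3% of 7620 ddH2O peaks. The exon share of the members was therefore above that of other noncoding genes in both libraries, beyond counting error. The other noncoding snoRNA hosts listed below had 56.5% of 23 lactate peaks and 56.3% of 48 ddH2O peaks in exons, inside the members' intervals, so a high exon share was not particular to the members. Without SNHG14 exons held 1 of 3 lactate peaks and 7 of 9 ddH2O peaks. The lactate share thus rests on that gene, and the ddH2O share does not. Such an interval treats the peaks of a gene as separate counts and holds no variation between cultures.

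A peak of the other IP library was overlapped by at least 1 base at 11 of the 16 lactate peaks (68.8%, 95% Wilson interval 44.4 to 85.8%) and at 11 of the 35 ddH2O peaks (31.4%, 18.6 to 48.0%). Over the peaks of all long noncoding RNA genes these shares were 48.5% and 21.4%, both inside the members' intervals. Of the shared peaks 10 belonged to SNHG14 and 1 to SNHG16.

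The authors merged both lists into 116484 merged peaks and gave each a normalized read density per IP library, in reads per kb of a 2000-base window around the peak. Every window has the same length, but this scaling changes with the mean log2 density of a window. Reads are thus turned into density by a factor that differs between genes, and a window can reach past a short gene. Densities of different genes can therefore be set beside each other only roughly. The members had 40 merged peaks, of which 11 were called in both libraries, 5 with lactate alone and 24 with ddH2O alone. Called with ddH2O alone were thus 60.0%, close to the 59.4% over all merged peaks. A peak called with ddH2O alone entered the table through the library in which it was high, and the same holds for lactate alone, so their ratios lean to that side by selection. Over all merged peaks the median log2 ratio was -1.40 for those called with ddH2O alone and 1.43 for those called with lactate alone. With at least 20 reads over both libraries these medians were -0.70 and 0.47.

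The ratios below describe the libraries with this selection in them, and a counting interval does not take it out. Densities are of IP reads alone and are not divided by the input. A high density or a ratio can thus reflect the abundance of a transcript as well as its binding by NSUN2, which was not tested. At 28 of the 40 the window overlapped that of a neighbouring merged peak, so that some reads count at more than 1 peak.

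**Figure D2:**
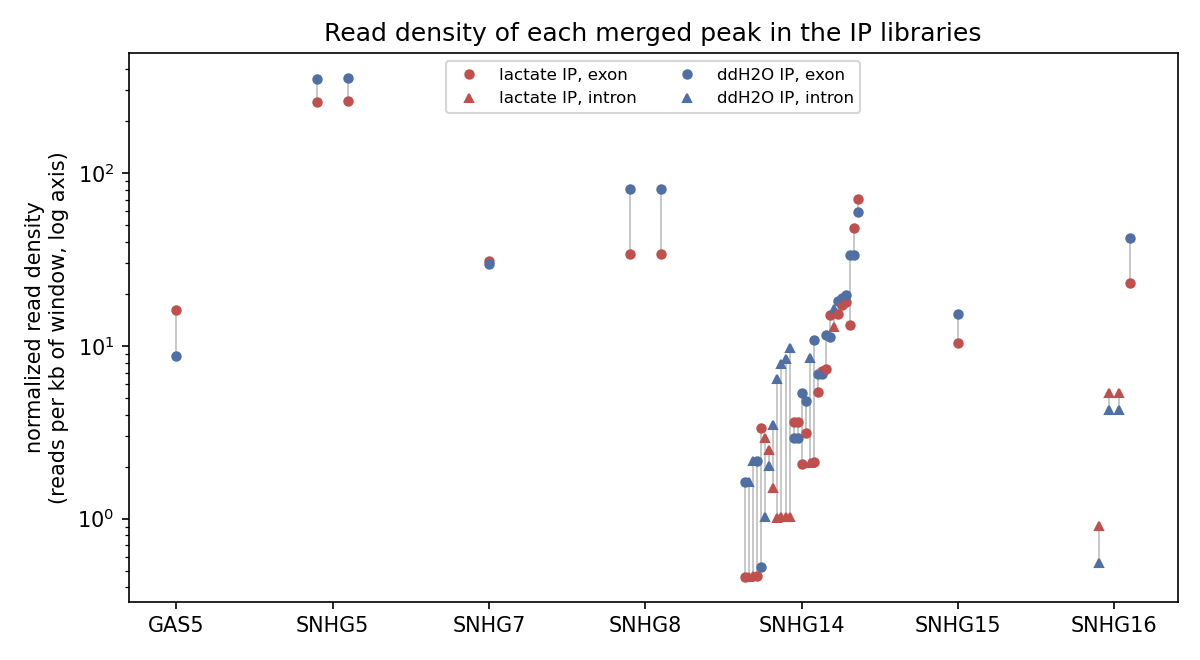
Normalized read density (vertical log axis, reads per kb of window) of each merged peak of the 7 members with peaks, in the lactate IP and the ddH2O IP, joined by a line, with circles for exon and triangles for intron peaks. The SNHG5 windows are the densest, at 258 to 354, and the windows of SNHG14 run from under 1 to 70.2.

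Among the hosts of box C/D snoRNAs, SNHG5 had the densest windows of any member. SNHG5 (ENSG00000203875) hosts SNORD50A and SNORD50B, which guide methylation of ribosomal RNA. Its densest merged peak, chr6:85677795-85678188 in an exon, had a density of 261 with lactate and 354 with ddH2O, from 345 and 1067 reads. The latter exceeded the ddH2O density of 99.7% of all merged peaks, so the transcript was among the densest there. Its log2 ratio of lactate over ddH2O was -0.44, with a 95% counting interval from -0.62 to -0.27.

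Both SNHG5 peaks were called in the ddH2O IP and neither was in the lactate list. At the peak above the fold over input was 4.05 with a q-value of 4.4e-51. The second, chr6:85677129-85677381, had a fold over input of 1.20 with a q-value of 0.010 and covered all 75 bases of SNORD50A. A fold of 1.20 was among the lowest of the list, in which 0.029% of the peaks had a lower one. Its window held 342 and 1047 reads, nearly those of its neighbour, as the whole gene spans 1727 bases and is shorter than a window.

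GAS5 (ENSG00000234741), named for its rise in growth-arrested cells and known as a decoy for the glucocorticoid receptor, has 11 snoRNA genes in its span. It had 1 peak, in an exon, chr1:173865671-173865870, called in the lactate IP with a fold over input of 2.32 and a q-value of 1. Its window had a density of 16.1 with lactate and 8.71 with ddH2O, from 27 and 19 reads. The log2 ratio was 0.88 (0.0038 to 1.83), between the 0.47 and the 1.43 of merged peaks called with lactate alone with and without the read minimum, so a difference beyond the selection was not shown. With the reads scaled by the library sums in place of the authors' scaling, it was 1.35, and with no scaling 0.49. The peak shared 16 bases with SNORD78.

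SNHG16 (ENSG00000163597) carries SNORD1A, SNORD1B and SNORD1C. Its exon peak, chr17:76563212-76563478, was called in the ddH2O IP with a fold over input of 2.54 and a q-value of 4.6e-09. Densities there were 23.0 with lactate and 41.8 with ddH2O, from 36 and 103 reads, a log2 ratio of -0.86 (-1.47 to -0.32). By this scaling it is within 2-fold, and between the -0.70 and the -1.40 of merged peaks called with ddH2O alone with and without the read minimum.

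The other SNHG16 peaks, 2 with lactate and 2 with ddH2O, were given to an intron of a longer SNHG16 transcript and lay outside the RefSeq span of the gene. Of these, 3 lay within the span of ST6GALNAC2, a sialyltransferase gene. Their windows held at most 9 lactate reads and 8 ddH2O reads. At the far end of the SNHG16 span lay a ddH2O peak of a gene without a symbol on the other strand, chr17:76565028-76565432, which is not counted for SNHG16. Its window was denser with lactate, at 400.3 against 248, with a log2 ratio of 0.69 (0.53 to 0.85). By the authors' densities it thus differed in direction from the SNHG16 exon window. It held 528 lactate and 749 ddH2O reads, so with no scaling both windows were lower with lactate. The reads of both genes cannot be told apart where they overlap.

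SNHG1, the host of SNORD22 and of SNORD25 to SNORD31, had no called peak anywhere in its RefSeq span, and the nearest merged peak was 1444 bases away on SLC3A2. The lists hold no value for a gene without a peak, so its level in the IP and input libraries is not known here.

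SNHG14 (ENSG00000224078) is the imprinted transcript of the Prader-Willi and Angelman region, expressed from the paternal chromosome, and it hosts the SNORD116 and SNORD115 clusters. Its distal part runs antisense to UBE3A, a ubiquitin ligase gene that it silences in neurons. The RefSeq span covers 596 kb with 84 snoRNA genes. From the start of the span to SNORD116-1, a stretch of 228 kb, 9 lactate and 13 ddH2O peaks were called, all in exons. Each of the 9 lactate peaks there overlapped a ddH2O peak, and 7 of the 9 and 11 of the 13 had a q-value below 0.05.

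Further along the gene the fold over input of its peaks reached 5.62 at most. Within the SNORD116 cluster there were 2 lactate and 2 ddH2O peaks, none with a q-value below 0.05, and none of the former overlapped the latter. Between the clusters no SNHG14 peak was called, and within the SNORD115 cluster, with 48 copies, 1 ddH2O peak was. The 3 ddH2O peaks between SNORD115-48 and UBE3A lay in introns. Over UBE3A there were 2 lactate peaks and 7 ddH2O peaks, 1 of the latter in an exon. The library kit does not mark strand, so reads of SNHG14 and UBE3A cannot be told apart at these 9 peaks.

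**Figure D3:**
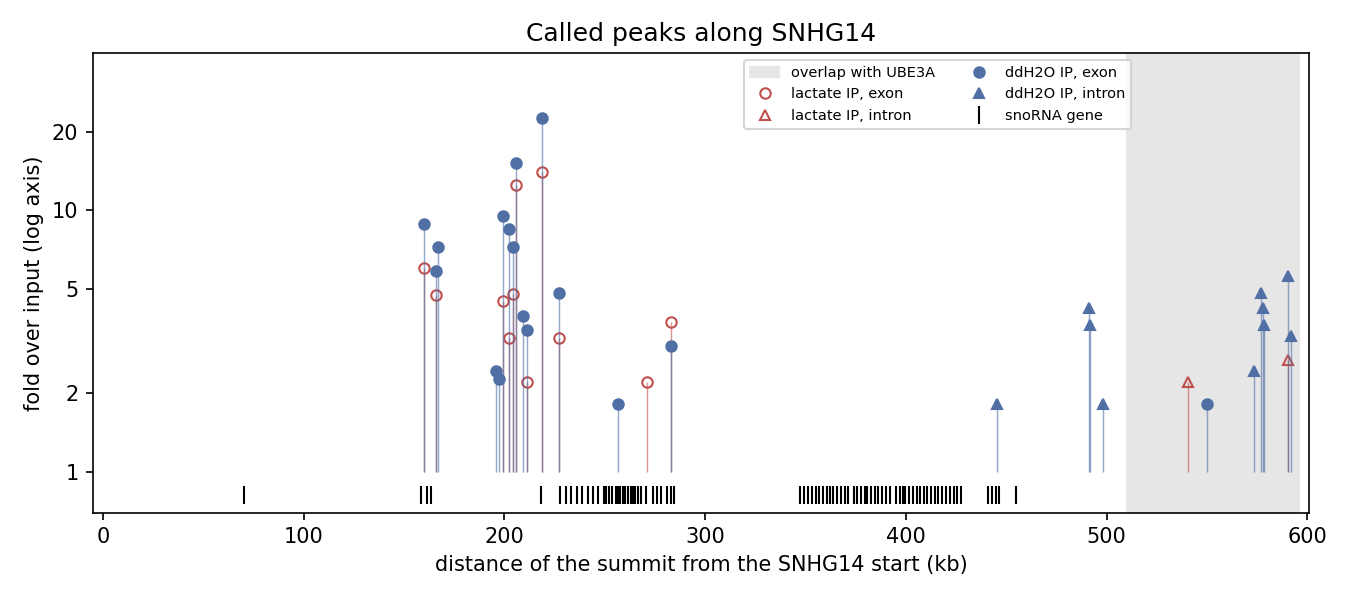
Called SNHG14 peaks by the distance of their summit from the RefSeq start in kb (horizontal axis) and their fold over input (vertical log axis), with open symbols for the lactate IP, filled ones for the ddH2O IP, circles for exons and triangles for introns. Black ticks mark snoRNA genes and grey the overlap with UBE3A. Peaks of both libraries gather between 160 and 227 kb from the start, ahead of the SNORD116 cluster.

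The densest SNHG14 window, chr15:24983080-24983873, lay in an exon 160 kb from the start, within the shorter RefSeq transcript PWARSN. The called peaks there had a fold over input of 6.0 with lactate and 8.88 with ddH2O. Densities were 70.2 and 59.3, from 105 and 156 reads, a log2 ratio of 0.24 (-0.13 to 0.60). A difference between the libraries was not detectable there by the authors' densities or the library sums. With no scaling the log2 ratio was -0.57 and the interval lay below 0, so this outcome rests on the scaling.

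The highest fold over input of any member belonged to an SNHG14 exon peak that covers all 67 bases of SNORD109A, and it was singled out after its values were seen. It was called at chr15:25041923-25042319 with lactate (fold 14.1, q-value 8.9e-23) and at chr15:25041884-25042362 with ddH2O (fold 22.6, q-value 1.9e-50). These folds exceeded those of 98.8% and 99.7% of the peaks in their lists. Densities of the window were 17.9 and 19.7, from 29 and 46 reads, with a log2 ratio of -0.14 (-0.88 to 0.55). A difference between the IP libraries was not detectable there.

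Other genes also had called peaks inside the SNHG14 span. With them the span held 16 lactate and 36 ddH2O peaks, the additional ones given to UBE3A, SNRPN, SNURF and a gene without a symbol. A UBE3A exon peak, chr15:25371515-25371994 with ddH2O, had a fold over input of 31.0, above any peak given to SNHG14.

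Among the hosts of box H/ACA snoRNAs, SNHG8 (ENSG00000269893) spans 1062 bases and carries SNORA24, a guide for pseudouridine in the RNA of the small ribosomal subunit. Both of its peaks were in exons and called with ddH2O. The first, chr4:118278755-118278954, had a fold over input of 8.02 with a q-value of 2.0e-17, and the second, chr4:118279491-118279819, had 2.11 with 2.9e-12. SNHG8 peaks thus sat at both ends of the short gene.

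The first SNHG8 peak reached over the annotated start of the transcript, which is why its start window is shown, from RefSeq on GRCh38.p14 at chr4:118278512-118278811, plus strand. Capitals mark the 57 bases covered by the peak, of which 7 lie before the start and 50 from it on.
SNHG8: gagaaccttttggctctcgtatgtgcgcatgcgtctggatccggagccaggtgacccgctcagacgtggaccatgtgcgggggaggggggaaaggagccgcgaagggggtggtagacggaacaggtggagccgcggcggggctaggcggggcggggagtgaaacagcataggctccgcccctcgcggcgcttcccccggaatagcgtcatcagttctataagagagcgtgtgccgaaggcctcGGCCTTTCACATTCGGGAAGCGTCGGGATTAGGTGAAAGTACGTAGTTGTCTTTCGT
With 1 start window taken for each of 27305 gene symbols in the RefSeq table, 1.64% overlapped a lactate peak and 4.59% a ddH2O peak. CNGGG, a pattern known near NSUN2-methylated cytosines, occurred 4 times in this SNHG8 window and its reverse complement CCCNG 2 times, overlapping matches counted apart. None of these matches lay in the capitals. Of all 35116 windows of 300 bases 83.2% held CNGGG and 82.7% held CCCNG.

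The windows of both SNHG8 peaks held the same reads, 51 with lactate and 208 with ddH2O, and are 1 measurement. Their density was 33.8 with lactate and 80.4 with ddH2O. The lactate density of SNHG8 was lower by 2.38-fold, a log2 ratio of -1.25 (-1.74 to -0.82). Scaled by the library sums the log2 ratio was -1.14, again past 2-fold. By the authors' densities it was the member whose densest window differed most between the libraries, and by the sums it came after GAS5. Of all merged peaks called with ddH2O alone and holding at least 20 reads, 36.7% were over 2-fold lower. All merged peaks with at least 20 reads had medians of 18 lactate and 27 ddH2O reads, fewer than SNHG8. That share thus does not tell how common such a value is at the depth of SNHG8.

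SNHG7 (ENSG00000233016) hosts SNORA17A and SNORA17B. Its exon peak, chr9:136725250-136725590, was called with ddH2O at a fold over input of 4.34 and a q-value of 3.0e-05. Even so the densities were alike, 31.1 with lactate and 29.8 with ddH2O, from 49 and 73 reads, and the log2 ratio was 0.06 (-0.50 to 0.59). By the authors' densities a peak called in 1 list thus did not come with a detectable difference here. With no scaling the log2 ratio was -0.57, on the side of the library it was called in, so this rests on the scaling.

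SNHG15 (ENSG00000232956), the host of SNORA9, had 1 exon peak, chr7:44983766-44984111, called with ddH2O at a fold over input of 3.41 and a q-value of 0.0177. Densities were 10.4 and 15.2 from 17 and 34 reads, with a log2 ratio of -0.55 (-1.52 to 0.29). By the authors' densities and by the library sums the interval spans no change, so a difference was not detectable under these scalings. With no scaling the log2 ratio was -0.96 and the interval lay below 0, so this outcome rests on the scaling.

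SNHG12 and SNHG3 had no peak under their own symbols. In the span of SNHG12, which carries SNORA16A, SNORA44, SNORA61 and SNORD99, the ddH2O list had 1 peak given to SNORD99, chr1:28578622-28578821. It had a fold over input of 1.75, a q-value of 0.293 and a window of 15 lactate and 48 ddH2O reads. The annotation calls it an exon of SNORD99, but only 79 of its 200 bases lie in that snoRNA gene and all lie in the SNHG12 span, and host and snoRNA cannot be told apart by a window of this length. SNHG3, which hosts SNORA73A and SNORA73B, had no called peak in its span, and the nearest merged peak was 4158 bases away on RCC1.

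Called peaks touched few of the snoRNA genes themselves. Of the 119 snoRNA genes inside the members' spans 7 shared at least 1 base with a called peak (5.88%, 95% Wilson interval 2.88 to 11.6%), against 93 of 1233 RefSeq snoRNA and small Cajal body RNA genes (7.54%). The 7 were SNORD99, SNORD78, SNORD50A, SNORD107, SNORD109A, SNORD116-14 and SNORD116-29. SNORD50A, SNORD107 and SNORD109A were covered in full, the other 4 in part. The members' share was within counting error of that of all such genes.

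Many snoRNA host genes belong to the class whose RNA begins with a run of pyrimidines, which ties the transcript to growth signalling. The start windows of 9 of the 10 members were matched in RefSeq, and SNHG15 was not. An opening run of at least 5 C or T bases was found in SNHG5 and SNHG12, against 5.17% of all 35116 start windows. The first 50 bases from the start of these windows' transcripts, chr6:85678684-85678733 and chr1:28581824-28581873 on the minus strand of GRCh38.p14, are shown with that run in capitals. For SNHG12 this start lies inside the RefSeq span of the gene, chr1:28578538-28582983, so longer transcripts begin upstream of it.
SNHG5: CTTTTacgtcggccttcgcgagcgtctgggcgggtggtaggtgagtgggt
SNHG12: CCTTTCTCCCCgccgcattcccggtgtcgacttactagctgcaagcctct
The run was 4 bases in SNHG7, 3 in SNHG1 and 1 in SNHG8, while GAS5, SNHG3, SNHG14 and SNHG16 opened with a purine at the annotated base. CNGGG occurred in the first 50 bases of 1 of the 9 members, SNHG5, against 34.1% of all start windows, and CCCNG in 1 of the 9, SNHG12, against 30.9%. No called peak of SNHG5 lay on these bases.

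Across all 40 merged peaks, 2 were over 2-fold higher with lactate and 15 were over 2-fold lower by the authors' densities. Those are 5.00% (95% Wilson interval 1.38 to 16.5%) and 37.5% (24.2 to 53.0%) of the members' merged peaks, beside 13.9% higher and 38.6% lower over all merged peaks. The share of lower windows was thus near the background. All 15 lower windows were called with ddH2O alone, 62.5% of the members' 24 such windows, beside 60.7% of all such merged peaks. At the level of genes, 1 of the 7 members with a merged peak had a higher one, SNHG14, and 2 had a lower one, SNHG14 and SNHG8. Among all 15016 genes 38.8% had a higher and 69.9% a lower merged peak.

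Scaling moved these counts. With the window of mitochondrial MT-RNR2 and that of MALAT1 left out, the merged peaks held 1945000 lactate reads and 3536821 ddH2O reads. When the reads were scaled by these sums, 9 windows of the members were higher and 11 lower, beside 24.5% higher and 20.5% lower over all merged peaks. With those 2 windows kept, the sums were 9756054 and 9553835 reads and nearly equal, which is close to no scaling, and with no scaling 2 windows of the members were higher and 18 lower (5.00% and 45.0%), beside 11.9% and 41.7% over all merged peaks. The count of higher windows thus rests on the choice of scaling.

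Under the sums without these windows, higher windows made up 45.0% of the windows past 2-fold, against 11.8% by the authors' densities. All 11 lower windows were also lower by the authors' densities.

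Many of the windows past 2-fold were sparse. At least 20 reads over both IP libraries were held by 22 of the members' 40 windows. Of these, 6 were lower (27.3%, 95% Wilson interval 13.2 to 48.2%) and 0 higher. For the 0 higher the upper limit was taken as 3 of 22, or 13.6%, in place of a Wilson interval. Over all merged peaks of that depth 18.6% were lower and 7.65% higher. The 6 were the pair of SNHG8 windows and 4 windows of SNHG14, and all 6 were also past 2-fold under the library sums.

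Of the 4 SNHG14 windows, 1 lay ahead of the SNORD116 cluster and 3 over UBE3A. The exon peak chr15:24990367-24990910 had densities of 2.13 with lactate and 10.8 with ddH2O, from 3 and 22 reads, a log2 ratio of -2.35 (-5.08 to -0.96). Over UBE3A the exon peak chr15:25373684-25373883 had densities of 13.3 and 33.6, from 21 and 80 reads, a log2 ratio of -1.34 (-2.16 to -0.68). Both were called with ddH2O alone and so were selected as high there, the former from few reads and the latter where both genes overlap.

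The intron peaks chr15:25400530-25400730 and chr15:25401267-25401466 lay within the same window length of each other over UBE3A. Their densities were 2.1 and 1.03 with lactate and 8.55 and 9.74 with ddH2O, from 3 and 1 lactate reads and 17 and 19 ddH2O reads. The log2 ratios were -2.02 (-4.77 to -0.57) and -3.25 (-9.55 to -1.52). Both share reads and so are not separate evidence for SNHG14. Of the SNHG14 windows outside the UBE3A span, 8 of 21 were lower and 1 was higher, beside 38.6% lower and 13.9% higher over all merged peaks. The share of lower windows there was thus near the background.

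The median log2 ratio of the members' merged peaks was -0.43, beside -0.50 over all merged peaks, and -0.01 beside 0.07 under the library sums. Relative to the median of all merged peaks the members thus stood at 0.06 and -0.08, close to it under both scalings. SNHG14 exon windows had a median of -0.19 and its intron windows -2.02, the latter with a median of 1 lactate read and 12 ddH2O reads.

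Over the densest window of each of the 7 members, the log2 ratio ran from -1.25 in SNHG8 to 0.88 in GAS5. SNHG8, SNHG16 and SNHG5, called with ddH2O alone, had counting intervals below 0 and GAS5, called with lactate alone, had one above 0, under both the authors' densities and the library sums. Each of the 4 was thus on the side of the library that it was called in. By the authors' densities none was further from 0 than the median of all merged peaks called in that library alone, while SNHG8, SNHG16 and GAS5 were further than the medians at 20 reads or more. Effects of lactate on binding, of lactate on transcript abundance and of selection cannot be told apart in them. Of these, SNHG8 was past 2-fold under both scalings. Neighbours in this order, such as SNHG16 and SNHG15 or SNHG7 and SNHG14, had overlapping intervals. The other 3 members, SNHG15, SNHG7 and SNHG14, had intervals that span no change under both scalings. With no scaling GAS5 was at 0.49, SNHG15 at -0.96, and SNHG14 and SNHG7 turned to -0.57 each. The intervals of SNHG15, SNHG14 and SNHG7 then lay below 0, and that of GAS5 spanned no change. SNHG16 at -1.49 and SNHG5 at -1.63 were past 2-fold beside SNHG8 with no scaling.

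**Figure D4:**
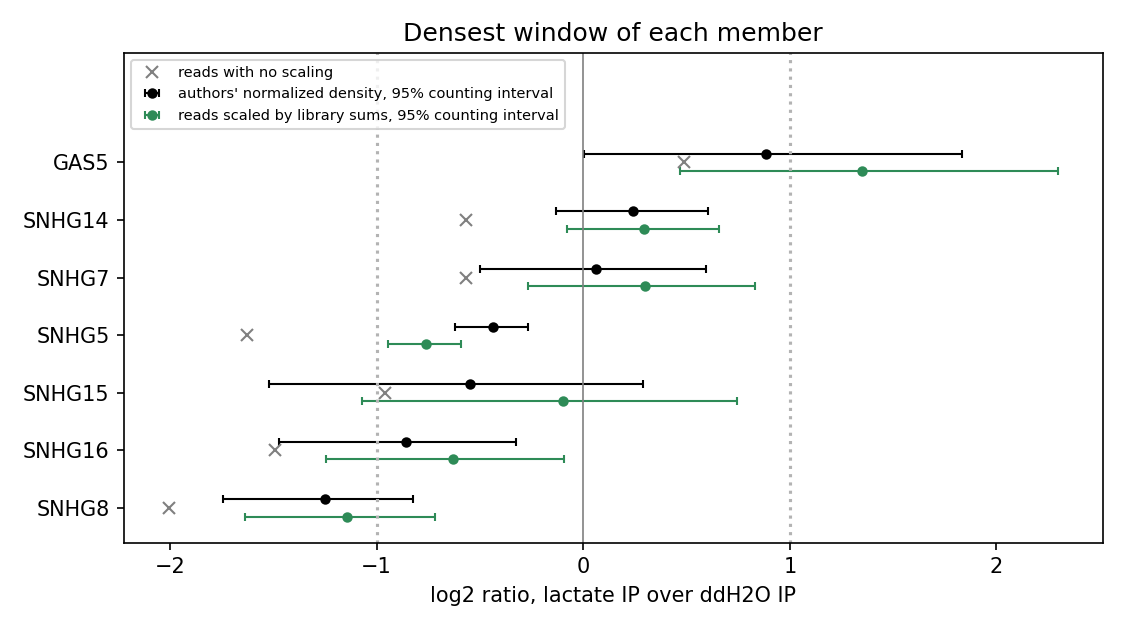
Log2 ratio of lactate IP over ddH2O IP (horizontal axis) in the densest window of each member, by the authors' normalized density (black) and with the reads scaled by the library sums (green), each with a 95% counting interval, and with no scaling (crosses). Dotted lines mark 2-fold. SNHG8 lies past 2-fold lower under all 3, and GAS5 at 0.88, 1.35 and 0.49.

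The members were set beside 5 lists of related genes. Of 23 other noncoding snoRNA hosts 12 (52.2%) had a lactate peak and 15 (65.2%) a ddH2O peak, against 30.0% and 60.0% of the members. Their densest 3 were SNHG9, MEG8 and SNHG19, with log2 ratios of 0.20, 0.48 and -0.01. SNHG5, at 261 and 354, was denser in both libraries than SNHG9, at 155 and 135, and MEG8, at 165 and 118.

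Of 38 protein-coding snoRNA hosts, 20 (52.6%) had a lactate peak and 25 (65.8%) a ddH2O peak, beside 47.1% and 58.4% of all protein-coding genes. Among the densest were RACK1, a scaffold protein of the ribosome, and EEF2, a translation elongation factor. Their densities with lactate were 2867 and 1973, several times that of SNHG5, and their log2 ratios were 0.64 and 0.50. Under the library sums both ratios changed sign, to -0.18 and -0.24, whereas SNHG5 was below 0 under both scalings.

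Proteins that bind, build or act on the products of the hosts also had peaks on their transcripts. Over all protein-coding genes 47.1% had a lactate peak and 58.4% a ddH2O peak. Of the 8 core snoRNP proteins 7 had a peak in each IP library, with FBL, the box C/D methyltransferase, NOP56 and DKC1, the pseudouridine synthase, the densest (log2 ratios 0.71, 0.55 and 0.06 by the authors' densities, and -0.17, -0.06 and -0.49 under the library sums). NOP56 and DKC1 are also snoRNA hosts and stand in both lists. Of 9 assembly factors 8 had a lactate peak and 9 a ddH2O peak, led by ZNHIT6, NOLC1 and RUVBL2 (0.36, -0.29 and -0.21). Under the sums these were 0.03, -0.54 and -0.28. Of 10 nonsense-mediated decay factors 9 had a peak in each, led by UPF2 and UPF3B (0.10 and -0.15, or -0.29 and -0.48 under the sums).

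By the authors' densities all of these windows lay within 2-fold, as did the densest windows of 6 of the 7 members. With no scaling RACK1, EEF2, FBL, DKC1, NOLC1, RUVBL2, UPF2 and UPF3B were past 2-fold lower, as were SNHG5, SNHG16 and SNHG8. RACK1, for example, held 3203 lactate and 6586 ddH2O reads. NOP56, ZNHIT6, SNHG9, MEG8 and SNHG19 stayed within 2-fold. The median log2 ratio over merged peaks was -0.22 for the other noncoding hosts, -0.21 for the protein-coding hosts, -0.08 for the core proteins, -0.31 for the assembly factors and -0.34 for the decay factors. With -0.43 the members had the lowest of the 6 medians, above the -0.50 of all merged peaks. Under the library sums the order changed, with -0.33 for the core proteins and -0.28 for the protein-coding hosts below the -0.01 of the members.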

How the data were processed

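RNA bound to NSUN2 and input RNA were sequenced from PANC-1 cells in 4 libraries. The submitters' processing notes name fastp 0.20.1, HISAT2 2.1.0, MACS2 2.2.7.1, bedtools 2.29.2, HOMER 4.11.1, DiffBind and the builds GRCh38 and hg38. Peak calling by the authors compared the IP reads with those of the matching input, and the deposited lists give for each peak a fold (ratio of IP over input), a −log10 p-value, a q-value, a gene symbol and a region. The authors joined both lists with MAnorm, whose deposited table gives a signal (normalized read density) of every merged peak in each IP library. The log2 ratio, mean log2 density and P-value of that comparison are the authors' own and were not used.

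Members were matched on the symbol, and merged peaks by an overlap of 1 base with a called peak of that symbol. Reads per window were computed back from both densities, as reads plus 1 per window of 2000 bases with a straight line in the mean log2 density taken off (intercept 0.20, slope -0.17). They came out within 0.01 of a whole number in both libraries for 116476 of 116484 windows. The recovery was also tried on simulated data, and the outcome of that is not reported here. Counting intervals are exact (Clopper-Pearson) on these reads and cover counting error only. The depth of the input libraries is unknown. With 1 library per group no test was run, and a window past 2-fold was called higher or lower.

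The members and lists were chosen with earlier results of these data known. Genes named from a list are among the 3 with the highest mean log2 density in their densest window, of which some are not reported here, and windows named within a member are its densest and those past 2-fold with at least 20 reads. SNHG16, SNHG14, UBE3A and SNORD99 peaks beyond that rule were chosen after their values were seen. Alternatives were other peak thresholds, RefSeq spans, overlap, scaling, folds and read minimums. RefSeq GRCh38.p14 gave the spans and start windows, and 97.2% of peaks on protein-coding genes lay on their span. The scripts ran under Python 3.11.15 with matplotlib 3.10.9, scipy 1.17.1, pandas 2.3.3 and numpy 2.4.6.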

Additional observations from a re-analysis of the deposited data

How the results depend on the processing

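No paired analysis was possible because there is only 1 IP library per treatment, with nothing to pair. Where a value moved, the cause was not tested unless the setting itself removes peaks. Leaving out SNHG14, or its peaks over UBE3A, was chosen after seeing the data.

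The members' called peaks numbered 7 with lactate at a q-value below 0.05. At a fold over input of at least 4 they numbered 6 with lactate and 17 with ddH2O. Without SNHG14 and with no such limit they numbered 3 and 9. The share of lactate peaks also found with ddH2O was 43.8% at an overlap of 50% of both peaks and 33.3% without SNHG14. The share of ddH2O peaks also found with lactate was 11.1% without SNHG14. The exon share of the lactate peaks was 100% at a q-value below 0.05 and 33.3% without SNHG14.

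Merged peaks over 2-fold higher numbered 9 of 40 when scaled by the IP sums, beside 24.5% of all merged peaks. In windows of at least 20 reads they numbered 0 of 22, beside 7.65%. Without SNHG14 they numbered 0 of 11 and without its peaks over UBE3A 1 of 32, beside 13.9%. They numbered 4 at a fold over 1.5 and 1 at a fold over 4. Lower ones numbered 8 at a fold over 4. In windows of at least 20 reads they numbered 6 of 22, beside 18.6% of all merged peaks of that depth. Without SNHG14 they numbered 2 of 11, beside 38.6% of all merged peaks. Shares over all merged peaks were not computed for folds over 1.5 or 4, so those counts have no background.

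With no scaling, close to scaling by sums over every window with MT-RNR2 and MALAT1 kept, the log2 ratio of the densest window was -0.57 in SNHG14, -1.49 in SNHG16, -1.63 in SNHG5, -0.57 in SNHG7 and -2.01 in SNHG8. The signs of SNHG14 and SNHG7 changed, and neither was past 2-fold. Scaled by the IP sums it was -0.76 in SNHG5. The other 32 of 57 alternative values were inside the interval of the reported value or, for counts, within 1.5 times of it. Reads limit most windows, with a median of 9 lactate and 16.5 ddH2O reads over the members' merged peaks.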
